A study of Mus musculus with 2 samples.

Results

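The 7 genes described here encode the MHC class II pathway of the mouse: Cd74, H2-Aa, H2-Ab1, H2-Eb1, H2-DMa, H2-DMb1 and Ciita. They were chosen by name, 7 of the 27998 genes counted in single-cell RNA libraries of ear skin, and were read in antigen-presenting cells and in the resident cells of the skin. The data were 1 library of healthy control skin and 1 of skin with allergic contact dermatitis (ACD), the delayed allergy to a hapten. Both came from ICR mice, an outbred stock, of 7 to 8 weeks and, by the methods, male. For ACD, 1.0% 2,4-dinitrofluorobenzene (DNFB) was painted on the back for sensitization, 0.2% DNFB was painted on the ears on day 6, and ear skin was taken 60 hr later. The control mice are labelled only as healthy, so exposure to the solvent is not known, and whether ears of several mice were pooled in a library is not stated. With 1 library per condition no difference below has a replicate check, and ACD cannot be told apart from any other difference between the 2 libraries. Intervals are exact at 95% and cover counting error only.

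MHC class II molecules are dimers of an alpha and a beta chain that carry peptides from endosomes to the cell surface and show them to CD4+ T cells. The invariant chain holds the groove closed during transport and the DM dimer later swaps its remnant for a peptide. Dendritic cells, Langerhans cells of the epidermis, macrophages and B cells make these molecules constitutively, and many other cells can make them after exposure to interferon gamma, through the coactivator CIITA, which is recruited by the RFX, CREB and NF-Y proteins bound to a conserved promoter module.

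H2-Aa (chr17:34282744-34287823, minus strand) and H2-Ab1 (chr17:34257689-34269419, plus strand) encode the alpha and beta chains of the I-A molecule. H2-Eb1 (chr17:34305867-34316674, plus strand) encodes the beta chain of I-E. H2-DMa (chr17:34119541-34139101, plus strand) and H2-DMb1 (chr17:34153072-34160230, plus strand) encode DM, and these genes lie together in the major histocompatibility complex. Cd74, the invariant chain, lies outside it, and Ciita is at chr16:10480059-10528418 on the plus strand. The positions are those of GENCODE M21 on GRCm38, the build (mm10) to which the reads had been aligned. H2-DMb1 has a near-identical neighbour, H2-DMb2, so reads of the pair could be split between them, and the H2 genes of an outbred stock can differ from the reference.

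Promoter windows of 300 bases in RefSeq on GRCm38.p6, 250 before and 50 after the start, were at hand for 4 of the 7 genes. In the genes named here the module was searched on the strand of the gene as GNAAC, from the X box that RFX binds. GNAAC had to be followed after 27 to 33 bases (start to start) by TGATTGG, which holds the Y box that NF-Y binds. H2-Aa, H2-Eb1 and H2-DMb1 had this pair, 31, 30 and 31 bases apart, and neither of 2 windows of H2-DMa had it. Among all 32851 windows 0.219% held the pair and 7.82% held TGATTGG on either strand, a wider search than that of the named genes. Of 4 other H2 class II genes, H2-Oa, H2-Ob and H2-Eb2 had the pair and H2-DMb2 had only TGATTGG. Of Cd74, H2-Aa, H2-Ab1 and H2-Eb1, only H2-Aa and H2-Eb1 had a window at hand, and both held the pair. The stretches from 110 to 31 bases before the start of H2-Aa (chr17:34287854-34287933, minus strand) and H2-Eb1 (chr17:34305757-34305836, plus strand) are shown, with the 2 motifs in capitals.
H2-Aa: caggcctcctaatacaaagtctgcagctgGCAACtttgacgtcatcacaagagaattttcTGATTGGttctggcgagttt
H2-Eb1: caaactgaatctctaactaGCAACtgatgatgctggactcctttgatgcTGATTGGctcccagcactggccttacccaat
The match describes these windows and shows no binding.

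After the filter of the study's methods, 12213 of 12895 control barcodes and 11665 of 13163 ACD barcodes remained, with a median of 6850 and 7447 unique molecular identifiers (UMIs) per cell. Each cell was named by a gate on marker genes that include none of the 7, so that "fibroblast" below means a cell past that gate. In each of the 17 gates the summed markers were higher in the gated cells than in any other named class. At least 10% of the gated cells had a UMI of every marker but 1 of the Langerhans and 1 of the neutrophil list. The same markers had set the gates, so both results were largely fixed by the gating and are no check of the names. Cells with markers of both fibroblasts and chondrocytes, the cells of ear cartilage, were kept as a class of their own (2401 control and 1263 ACD cells). Classes of different lineages were passed at once by 278 control and 393 ACD cells (mixed), and 799 and 1199 cells passed none (ungated). The libraries shared 50 barcodes. Levels are UMIs per 1000000 UMIs of the class (UPM). In this 3' assay 1 UMI stands for 1 transcript whatever its length, so levels of different genes can be set side by side. A difference was counted when it passed 2-fold after 10 UPM were added to both levels, among genes with at least 50 UMIs in the class. The 50 UMIs were those of both libraries together, so a gene with few control UMIs could enter through its ACD UMIs alone.

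The 7 genes together took 436 UPM in control and 1510 in ACD over all kept cells. In control, 67.2% (66.8% to 67.7%) of their UMIs were in the 64 cells gated as Langerhans, dendritic, macrophage, monocyte or B cells, and 5.98% (5.75% to 6.22%) in the 10338 resident cells. In ACD, 49.1% (48.9% to 49.4%) were in 204 antigen-presenting cells and 22.9% (22.7% to 23.1%) in 6358 resident cells. Mixed and ungated cells held 24.7% and 24.3%, so about the same share of the MHC class II RNA was left unnamed in either library. The UMIs left unnamed were 9935 in control and 36615 in ACD. Single cells at 10000 UPM or more numbered 18 ungated and 9 mixed in control, and 125 and 17 in ACD. These cells are not in the counts of antigen-presenting cells above.

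**Figure D1:**
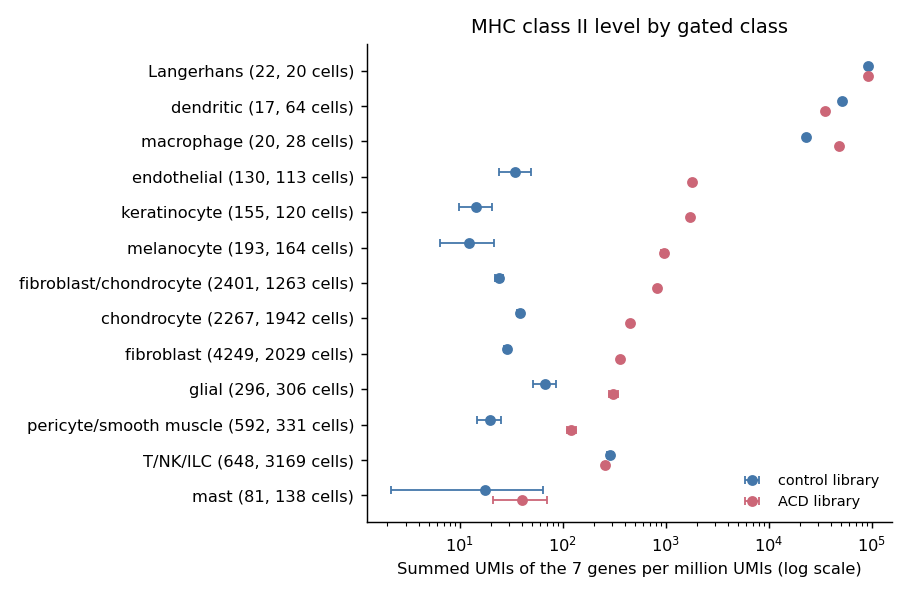
Summed level of the 7 genes in each gated class, in UPM on a log axis, with blue points for the control library and red for ACD. Bars are exact 95% Poisson intervals and cover counting error only. Langerhans cells sit at 91448 and 91105, while every resident class drawn is higher in ACD.

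Langerhans cells had the highest level of any class, and it hardly differed between the libraries. The 22 control cells had 91448 UPM and the 20 ACD cells 91105, a log2 ratio of -0.01 (-0.03 to 0.02). Single control cells ranged from 69037 to 116267 with a median of 90507, and ACD cells from 55157 to 128173 with a median of 93372, so the ranges overlapped almost wholly. Cd74 alone was at 47528 in control and 49006 in ACD. The I-A chains followed, H2-Ab1 at 19470 and 19219 and H2-Aa at 18209 and 16008. H2-Eb1 (2478 and 2796), H2-DMa (2018 and 2660) and H2-DMb1 (1702 and 1369) were several times lower. None of the 6 members with 50 UMIs passed 2-fold in either direction, where 4.13% of the 1161 genes tested were past 2-fold higher and 3.36% lower. Without thinning of the counts, 100% of Langerhans cells of either library had UMIs of Cd74, H2-Aa, H2-Ab1, H2-DMa and H2-DMb1.

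Dendritic cells were lower in ACD, below 2-fold. The level was 51110 UPM in 17 control cells and 35517 in 64 ACD cells, a log2 ratio of -0.53 (-0.56 to -0.49). The median cell had 48983 in control and 34942 in ACD, with ranges of 0 to 144945 and 0 to 106011 that overlap. By gene, the log2 ratio was -0.91 (-1.14 to -0.68) for H2-Eb1, -0.66 for H2-Aa, -0.53 for Cd74 and -0.43 for H2-Ab1. The DM genes differed little, at -0.13 (-0.39 to 0.14) for H2-DMa and 0.18 (-0.10 to 0.46) for H2-DMb1. Of 6 members tested none passed 2-fold, against 5.38% of 2474 genes higher and 1.37% lower. The members' median of -0.48 stood beside 0.07 over all genes tested.

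The dendritic gate held several subsets. Cells with a UMI of Xcr1 or Clec9a, markers of cross-presenting dendritic cells, were at 56924 in control (4 cells) and 41182 in ACD (14 cells). Cells with a UMI of Cd209a and of none of Ccl22, Xcr1 and Clec9a were at 88002 (4 cells) and 36441 (27 cells). Cells with Ccl22, a chemokine of mature dendritic cells, and neither Xcr1 nor Clec9a were at 30214 (6 cells) and 32723 (18 cells), while their median cell had 4944 in control and 28952 in ACD. The pooled level was thus lower in ACD in the first pair of subsets and not in the third, with 4 to 6 control cells in each.

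Macrophages stood the other way, with a level of 23076 in 20 control cells and 48166 in 28 ACD cells and a log2 ratio of 1.06 (1 to 1.13). H2-DMb1 (1.47), H2-Ab1 (1.44), H2-Aa (1.19) and H2-Eb1 (1.07) passed 2-fold, while Cd74 (0.83) and H2-DMa (0.65) did not. That is 4 of 6 members, in a class where 12.6% of 740 genes were past 2-fold higher. The median cell had 2562 UPM in control and 36366 in ACD, a wider gap than the pooled levels show. In control 6 of 20 macrophages had no UMI of the 7 genes and 1 cell held 36.1% of them, while no ACD macrophage was below 7163. The gate held different cells in the 2 libraries: 17 of 20 control macrophages had a UMI of Cd163 or Folr2, markers of resident macrophages, and 0 of 28 ACD macrophages had one. The control cells with these markers were at 18201 with a median cell of 374, and the 3 without them at 49943. The 14 ACD macrophages with a UMI of Ly6c2 or Ccr2, markers of monocyte descent, were at 49598 and the 14 without at 45008. A shift in level within 1 kind of macrophage and a change in the kinds present cannot be told apart here.

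Monocytes and B cells were almost confined to ACD, so no comparison rests on them. The 64 ACD monocytes had 19554 UPM, with single cells from 0 to 78078. The 28 ACD B cells had 27752 and leaned to Cd74, which made up 66.9% (65.1% to 68.7%) of their UMIs of Cd74, H2-Aa and H2-Ab1.

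**Figure D2:**
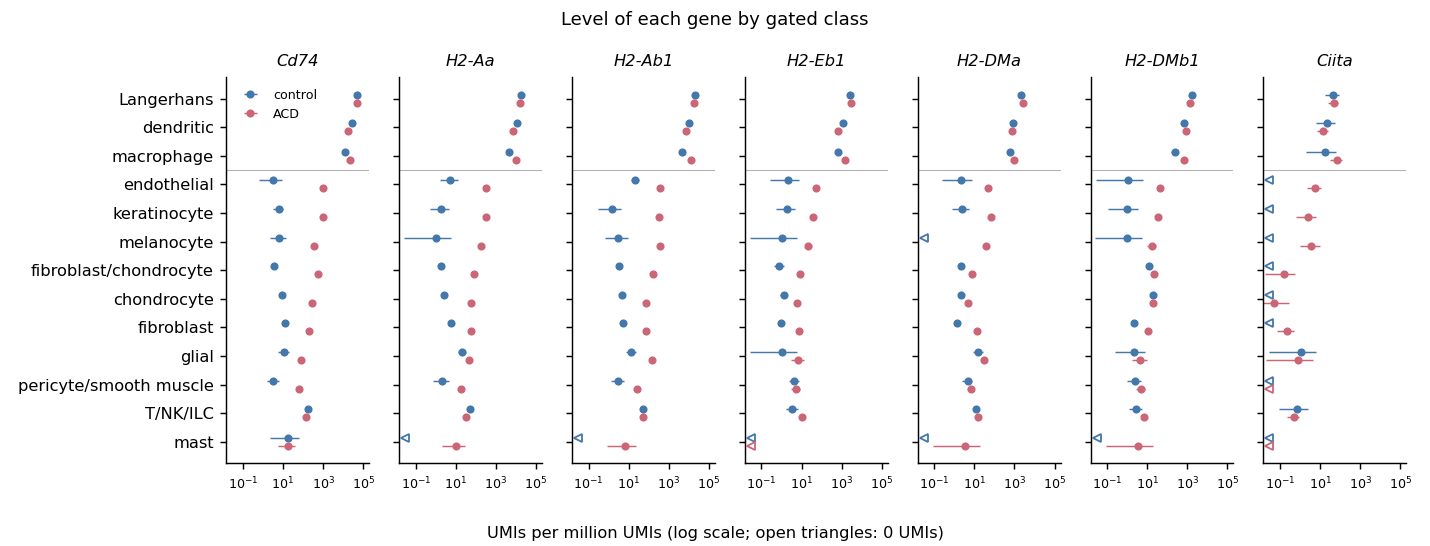
Level of each of the 7 genes by gated class, in UPM on a log axis, blue for control and red for ACD, with exact 95% Poisson intervals. Open triangles at the left edge mark 0 UMIs. The line separates antigen-presenting classes from the others; Cd74 and H2-Ab1 are higher in ACD in the resident classes, while the intervals of H2-Eb1, H2-DMa and H2-DMb1 overlap in pericytes and in glial cells, and that of H2-DMb1 also in chondrocytes.

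All 8 resident classes with enough cells had a higher summed level in ACD, from 4.64-fold in glial cells to 119.7-fold in keratinocytes, though all stayed far below the antigen-presenting classes. The keratinocyte ratio, 6.90 on the log2 scale, was 6.34 without cells with markers of antigen-presenting cells and 4.21 over all barcodes. The glial ratio, 2.21 on this scale, was 3.17 without cells with such markers and 3.05 as a mean over cells. The ratio of pericytes and smooth muscle cells was then lower, at 1.90 and 2.22. Among cells with no leukocyte UMI the log2 ratio ran from 0.96 in pericytes and smooth muscle cells to 6.88 in melanocytes. Of 40 pairs of a member and a resident class that could be tested, 30 were past 2-fold higher, where 0.428% (chondrocytes) to 2.88% (endothelial cells) of all genes tested in these classes were. Cd74 was past it in all 8 classes, H2-Ab1 also in 8, and H2-Aa in 7.

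Endothelial cells, which line vessels, and keratinocytes had the highest levels among resident cells in ACD, with intervals that overlap. Keratinocytes were the higher of the pair with all barcodes (1691 against 1635), with a stricter filter (1849 against 1823) and with 1 more marker (1768 against 1757). Endothelial cells were the higher in the other settings. The gap was wide as a mean over cells (1637 against 1298), without leukocyte UMIs (1623 against 1068) and without antigen-presenting-cell markers (1597 against 1189). Without the 1 keratinocyte with most UMIs, a check chosen after seeing the data, keratinocytes were at 1167. Endothelial cells were at 34.9 (24.0 to 49.0) in control (130 cells) and 1796 (1722 to 1872) in ACD (113 cells). This is a log2 ratio of 5.68 (5.19 to 6.23), and of 4.79 as a mean over cells (59.0 and 1637). Cd74 was at 3.17 UPM (3 UMIs) in control and 969 in ACD, which is 8.25 on the log2 scale (6.70 to 10.53). H2-Ab1 was already at 21.2 (20 UMIs) in control and was at 371 in ACD. H2-Aa was at 5.29 and 306. The 6 members tested were all past 2-fold higher, H2-Eb1, H2-DMa and H2-DMb1 included, against 2.88% of 5275 genes.

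Keratinocytes, the epithelial cells of the epidermis, followed at 14.5 (9.83 to 20.5) in 155 control cells and 1731 (1668 to 1795) in 120 ACD cells, a log2 ratio of 6.90 (6.39 to 7.46). Cd74 was at 6.06 and 953, H2-Aa at 1.87 and 322, and H2-Ab1 at 1.40 and 317. All 6 members tested were past 2-fold, against 1.49% of 6714 genes. A single ACD keratinocyte held 33.5% of the UMIs (971). Without the 3 cells that had a UMI of a marker of antigen-presenting cells (Cd207, C1qa, C1qb, C1qc, Itgax, Flt3, Cd209a or Cd79b) the ACD level was 1189 (1136 to 1243). The median keratinocyte in ACD had 111 UPM and the 90th percentile was 3756.

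Melanocytes, the pigment cells, were at 12.4 (6.39 to 21.6) in 193 control cells and 969 (911 to 1029) in 164 ACD cells, a log2 ratio of 6.29 (5.48 to 7.25). Here H2-Ab1 (356 in ACD) was as high as Cd74 (341), and H2-Aa was at 191. H2-DMa had 0 UMIs in control and 40 in ACD, which is at least 12-fold higher against a floor of 3 UMIs in the control cells. The 3 members tested were past 2-fold, against 1.45% of 5782 genes.

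The 3 mesenchymal classes differed among themselves. In ACD the cells with both fibroblast and chondrocyte markers were at 830 (815 to 846), chondrocytes at 446 (437 to 456) and fibroblasts at 364 (356 to 372), with intervals that do not overlap. Their control levels were 24.0, 38.6 and 28.7, and the log2 ratios 5.11 (4.98 to 5.25), 3.53 (3.42 to 3.64) and 3.67 (3.57 to 3.76). In fibroblasts Cd74 was at 13.1 in control and 203 in ACD, H2-Ab1 at 5.31 and 73.8, and H2-Aa at 5.84 and 56.2. Cd74, H2-Aa, H2-Ab1 and H2-DMa were past 2-fold, 4 of 6 tested, against 0.81% of 12593 genes. A single control fibroblast held 51.8% of the class's control UMIs (509), and without cells that had a UMI of a marker of antigen-presenting cells the control level was 13.8 and the ACD level 349. Cd74, H2-Aa and H2-Ab1 were past 2-fold in both other classes, 3 of 6 members tested, against 0.565% of 11864 genes in fibroblast/chondrocyte cells and 0.428% of 11926 in chondrocytes.

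H2-DMb1 was near level between the libraries in chondrocytes. Control chondrocytes had it at 18.4 (16.6 to 20.5), above their Cd74 (9.46, 8.12 to 11), and ACD chondrocytes at 19.4 (17.5 to 21.5), a log2 ratio of 0.07 (-0.14 to 0.29). In control fibroblast/chondrocyte cells it was at 12.3 while Cd74 was at 3.76. Control fibroblasts had 2.10 UPM of it. Its partner H2-DMa was at 2.07 in control chondrocytes, so the DM genes were not level with each other there.

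Glial cells, the Schwann cells of skin nerves, were at 67.0 (51.5 to 85.7) in control and 311 (281 to 342) in ACD. The log2 ratio was 2.21 (1.83 to 2.62). Cd74 and H2-Ab1 were past 2-fold, 2 of 4 members tested, against 1.61% of 5727 genes. H2-Ab1 (13.8 and 144) was the highest member in ACD and Cd74 (11.7 and 77.9) the second. A single control cell held 49.2% of the control UMIs. As a mean over cells the log2 ratio was 3.05. Without cells that had a UMI of a marker of antigen-presenting cells it was 3.17, from 34.6 in control and 312 in ACD.

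Pericytes and smooth muscle cells were the lowest in ACD, at 19.6 (14.9 to 25.3) in control and 121 (109 to 133) in ACD. The log2 ratio was 2.63 (2.23 to 3.05). Cd74, H2-Aa and H2-Ab1, the 3 members tested, were past 2-fold, against 0.994% of 8349 genes. A single ACD cell held 39.9% of the UMIs, and among cells with no leukocyte UMI the levels were 20.4 and 39.7, a log2 ratio of 0.96. Muscle satellite cells had 2 UMIs in 55 control cells (8.04 UPM) and 134 in 90 ACD cells (285), with no member at 50 UMIs.

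CIITA, the coactivator, was sparse everywhere. Ciita was at 44.1 and 47.7 UPM in Langerhans cells, 21.8 and 13.8 in dendritic cells and 16.8 and 67.8 in macrophages (control, then ACD). Over the 8 resident classes it had 1 UMI in control, in a glial cell, and 24 in ACD, 7 of them in endothelial cells (5.68 UPM, 2.28 to 11.7), 5 in fibroblasts, and 4 each in keratinocytes (2.39) and melanocytes (3.71). The endothelial value is at least 1.79-fold above the floor of 3 control UMIs. It reached 50 UMIs in none of the 11 classes tested.

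Cells of other kinds set the background. T, NK and innate lymphoid cells (T/NK/ILC) had 290 UPM in control and 256 in ACD, with 84.0% and 51.1% of the UMIs in their top 1% of cells. Mast cells, at 17.8 (2.15 to 64.2) and 40.7 (21.0 to 71.1), and in ACD basophils at 73.3 (53.3 to 98.4) and neutrophils at 162 (99.0 to 250), were lower. In ACD, fibroblasts (364) and glial cells (311) were above all of these. Pericytes and smooth muscle cells (121) were below the T/NK/ILC level.

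Markers of leukocytes were also higher in ACD in 8 of 9 resident classes, with intervals that overlap in muscle satellite cells. The fold was 12.96 in melanocytes, 5.22 in keratinocytes, 4.10 in chondrocytes, 3.24 in fibroblasts, 2.69 in fibroblast/chondrocyte cells, 2.54 in pericytes and smooth muscle cells and 1.55 in endothelial cells, and 0.946 in glial cells. A list of 9 (Ptprc, Tyrobp, Fcer1g, Laptm5, Coro1a, Cd52, Lyz2, Cd53, Rac2), all of which were detected in ACD fibroblasts, summed to 10.3 to 484 UPM over the 9 resident classes in control and 48.9 to 457 in ACD. Glial cells were at the upper end of both ranges, with 431 control and 510 ACD UMIs of Lyz2. Per 100 UMIs of the 7 genes, ACD endothelial cells had 5.56 leukocyte UMIs, keratinocytes 7.03 and melanocytes 13.8, beside 6.01 in Langerhans cells, 16.7 in dendritic cells and 27.9 in macrophages, while glial cells had 147 and pericytes and smooth muscle cells 105. Among cells with 0 UMIs of the list, the ACD level was 1623 in endothelial cells, 1068 in keratinocytes, 1025 in melanocytes, 802 in fibroblast/chondrocyte cells, 408 in chondrocytes, 312 in fibroblasts and 217 in glial cells, against 37.3, 13.1, 8.69, 21.8, 25.5, 11.4 and 33.7 in control. In these 7 classes the log2 ratio among cells with 0 UMIs of the list was 2.69 to 6.88. The part of leukocyte RNA in pericytes and smooth muscle cells was not tested further.

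**Figure D3:**
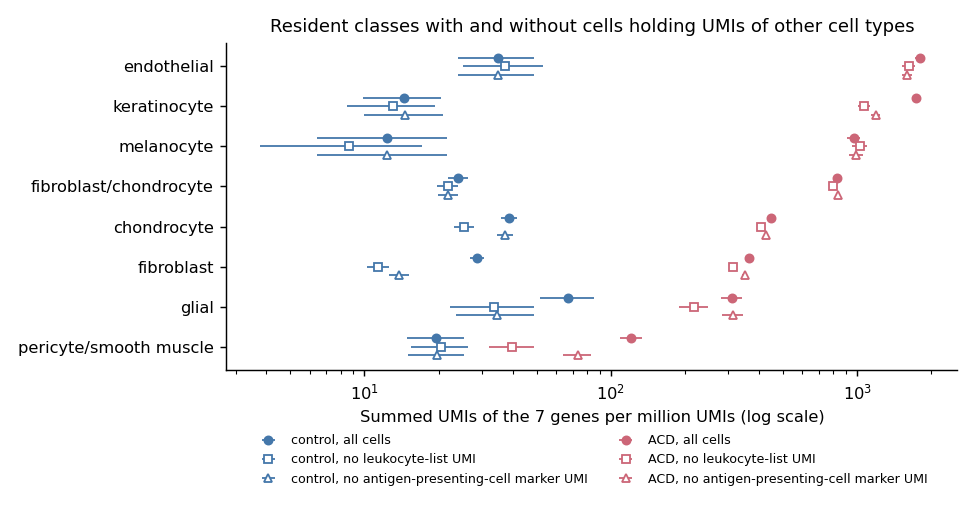
Summed level of the 7 genes in 8 resident classes, in UPM on a log axis with exact 95% Poisson intervals: all cells (filled circles), cells with 0 UMIs of 9 leukocyte genes (squares) and cells with 0 UMIs of 8 markers of antigen-presenting cells (triangles). Blue is control and red ACD; the libraries stay apart in 8 classes, least in pericytes and smooth muscle cells (20.4 and 39.7 without leukocyte UMIs).

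The share of cells with a UMI was compared after each cell was thinned to 2000 UMIs, since ACD cells were deeper in most classes. In ACD 41.6% (32.4% to 51.2%) of 113 endothelial cells had a Cd74 UMI, as did 33.6% (24.9% to 43.3%) of 110 keratinocytes, 27.3% (24.9% to 29.9%) of 1259 fibroblast/chondrocyte cells, 22.4% (16.0% to 29.8%) of 152 melanocytes, 18.7% (17.0% to 20.6%) of 1931 chondrocytes and 12.8% (11.3% to 14.3%) of 2006 fibroblasts. The control shares of these classes were 0.543% to 1.95%. T/NK/ILC cells had 5.39% in control and 11.6% (10.5% to 12.8%) in ACD, so the fibroblast share overlapped this background, as did muscle satellite cells (11.1%) and glial cells (7.12%, 4.4% to 10.8%), and pericytes and smooth muscle cells (4.86%) were below it. Without thinning the ACD shares were 54.9%, 50%, 43.4%, 34.1%, 32.2% and 27.2% in the order above and 22.3% in T/NK/ILC cells, whose median depth was 5396 UMIs against 10099 in endothelial cells and 10017 in fibroblasts. Among other leukocytes of ACD, 1 of 58 mast cells, 8 of 143 basophils (5.59%, 2.45% to 10.7%) and 7 of 27 neutrophils had a Cd74 UMI. The neutrophil share, on 27 cells, was above those of melanocytes, chondrocytes and fibroblasts. Thinning left out 0 of 113 endothelial cells, 10 ACD keratinocytes, 12 ACD melanocytes, 23 ACD and 47 control fibroblasts and 66 ACD T/NK/ILC cells. It also left out 32 of 59 ACD neutrophils and 80 of 138 ACD mast cells.

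Detection of 3 genes in 1 cell separated the classes further. Cd74, H2-Aa and H2-Ab1 were found together in 14.5% (9.30% to 21.1%) of ACD melanocytes, 12.4% (6.94% to 19.9%) of endothelial cells, 10.9% (5.77% to 18.3%) of keratinocytes, 4.92% of fibroblast/chondrocyte cells, 2.80% of chondrocytes and 2.49% (1.86% to 3.27%) of fibroblasts, and in 0.58% (0.344% to 0.915%) of T/NK/ILC cells. In control the 3 genes met in 0 of 123 endothelial cells, 0 of 154 keratinocytes and 0 of 172 melanocytes, which allows shares of up to 2.44%, 1.95% and 1.74% (3 cells of the total; the exact 95% limits are 2.95%, 2.37% and 2.12%). Without thinning, 0.769% of the 130 control endothelial cells had all 3. Glial cells (1.78%, 0.58% to 4.10%) overlapped T/NK/ILC cells. For comparison all Langerhans cells, 78.1% of dendritic cells and 16 of 16 macrophages of ACD (12 shallower ones were left out) had all 3, and 7 of 20 control macrophages.

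**Figure D4:**
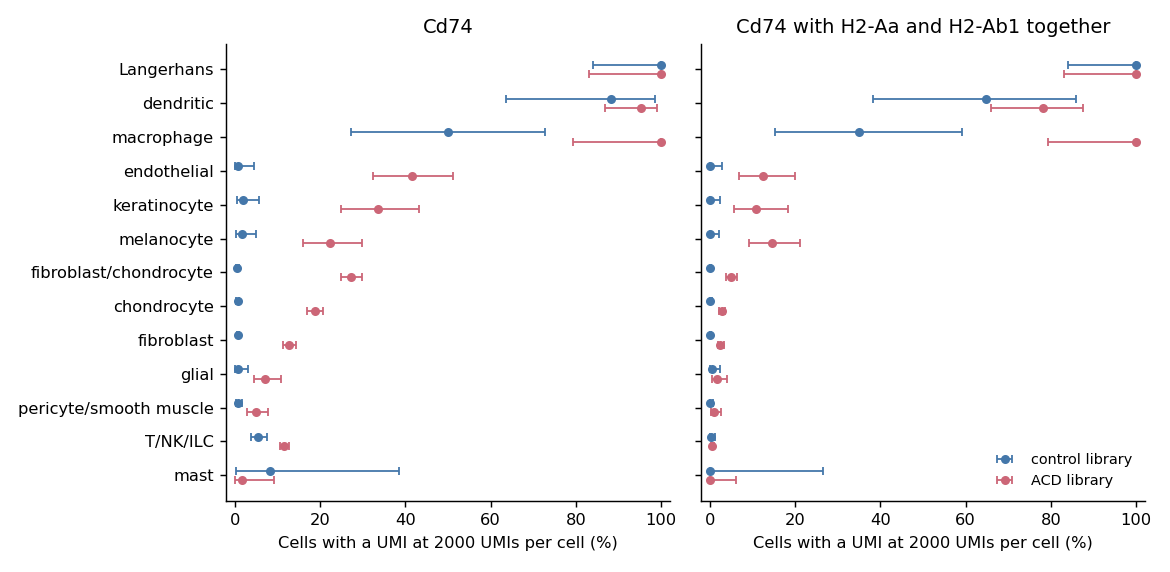
Share of cells in percent with a Cd74 UMI (left) and with UMIs of Cd74, H2-Aa and H2-Ab1 together (right) after each cell was thinned to 2000 UMIs, by gated class, blue for control and red for ACD. Bars are exact 95% binomial intervals; endothelial cells, keratinocytes and melanocytes of ACD lie between 10.9% and 14.5% on the right, T/NK/ILC cells at 0.58%.

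Within a class the transcripts sat in a part of the cells. Among ACD melanocytes with an H2-Ab1 UMI, 65.9% (50.1% to 79.5%) also had Cd74, against 4.63% (1.52% to 10.5%) of those without it. The same shares were 90.9% and 19.3% in keratinocytes, 71.8% and 25.7% in endothelial cells, 78.0% and 17.8% in fibroblast/chondrocyte cells, 58.4% and 8.46% in fibroblasts and 28.6% and 3.35% in glial cells. T/NK/ILC cells showed the split too, at 40% and 10.2%. The median ACD endothelial cell had 521 UPM of the 7 genes and the highest 13453, while the median ACD fibroblast had 0 and the 90th percentile 680.

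Cells with a UMI of Cxcl9, a chemokine induced by interferon gamma, had more. In ACD endothelial cells the level was 4174 (3915 to 4446) in the 17 cells with Cxcl9 and 1246 (1178 to 1317) in the 96 without. Keratinocytes were at 5907 in 19 cells and 648 in 101. The 19 included the cell with 971 UMIs, and without it (a check chosen after seeing the data) they were at 3306 (3110.2 to 3509.8). Fibroblasts were at 476 (458 to 494) in 393 cells and 325 (317 to 334) in 1636. Cells with Cxcl9 were deeper in these classes, with medians of 14685, 19388 and 14379 UMIs against 9988, 13617 and 9173. In melanocytes the levels were 795 (578 to 1068) in 8 cells and 978 in 156, so no such order was seen there.

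The mix of transcripts was not the same in every class. Cd74 made up 54.9% (54.3% to 55.5%) of the UMIs of Cd74, H2-Aa and H2-Ab1 in ACD dendritic cells, 58.2% in Langerhans cells and 47.7% (46.5% to 48.9%) in macrophages. Endothelial cells (58.9%, 56.7% to 61.0%), keratinocytes (59.9%) and fibroblasts (61.0%) were near these. Chondrocytes (69.6%, 68.6% to 70.6%) and fibroblast/chondrocyte cells (69.9%) had more Cd74, and melanocytes (38.4%, 35.3% to 41.6%) and glial cells (29.0%, 24.3% to 34.0%) had less. H2-Aa made up 49.5% of the I-A chains in dendritic cells, 50.4% in keratinocytes and 45.2% in endothelial cells, but 34.9% (31.1% to 38.9%) in melanocytes, 34.7% in fibroblast/chondrocyte cells and 24.4% (19.2% to 30.2%) in glial cells. These shares differed between classes beyond counting error.

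**Figure D5:**
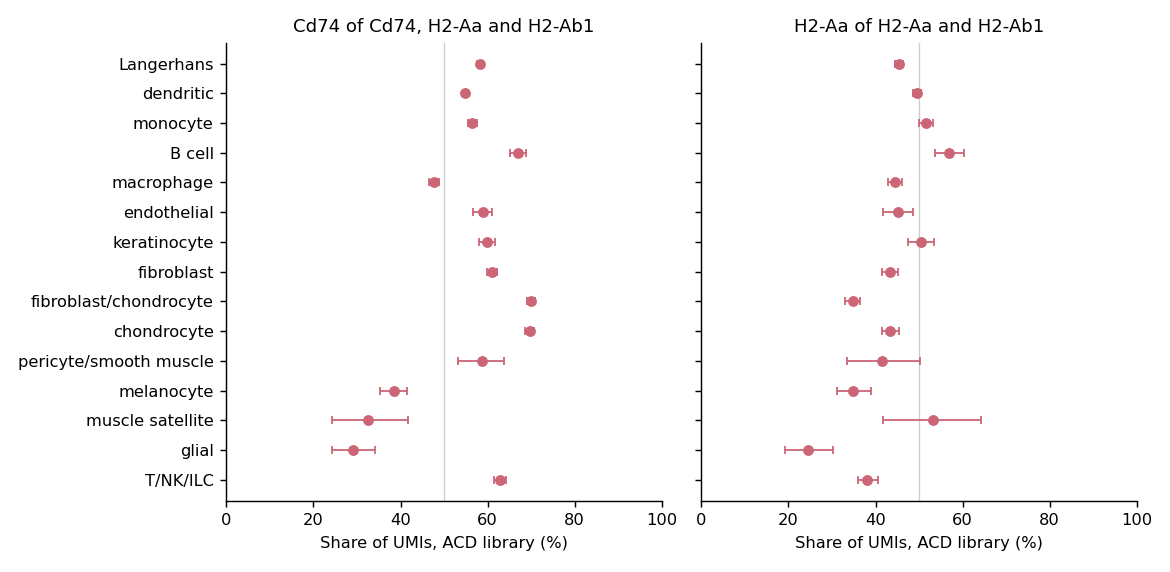
Share in percent of Cd74 among UMIs of Cd74, H2-Aa and H2-Ab1 (left) and of H2-Aa among UMIs of H2-Aa and H2-Ab1 (right), by gated class of the ACD library. Bars are exact 95% binomial intervals and the grey line is at 50%; glial cells are lowest in both panels (29.0% and 24.4%).

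H2-Eb1 was low beside H2-Ab1. In ACD it made up 12.7% of the UMIs of this pair in Langerhans cells, 7.68% in dendritic cells, 13% in endothelial cells, 11.1% in keratinocytes, 9.07% in fibroblasts and 5.88% in melanocytes. The DM genes together made up 4.42% of all UMIs of the 7 genes in Langerhans cells, 4.45% in dendritic cells, 4.97% in endothelial cells and 6.44% in fibroblasts of ACD. In chondrocytes they were 53.1% (49.4% to 56.8%) in control and 5.46% in ACD, and in fibroblast/chondrocyte cells 60.2% (55.7% to 64.5%) and 3.44%.

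Of a list of 24 further genes of the pathway, 23 were in the files and 6 to 17 had enough UMIs for a comparison in a class. In resident classes, Irf1, an interferon-induced transcription factor, was past 2-fold higher in glial cells (320 and 704 UPM, control then ACD, in a class with 1.61% of genes past 2-fold higher) and melanocytes (139 and 306, with 1.45%), and Sppl2a, a protease that cleaves the invariant chain, in melanocytes (40.2 and 95.6). In fibroblasts Irf1 was at 611 and 664, and in chondrocytes at 670 and 714, short of 2-fold. Rfxap (33.3 and 30) and Nfyb (36.0 and 35.7), subunits of the factors on the X and Y boxes, were near level in fibroblasts, where Ctss, the protease that trims the invariant chain in antigen-presenting cells, was at 0.672 and 2.72.

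In antigen-presenting classes the list was more varied. Dendritic cells had Irf1 (104 and 386) and Cd40, a costimulatory receptor (59.9 and 151), past 2-fold higher (5.38% of all genes tested there), and 0 of 13 tested were past 2-fold lower (1.37%). Of 6 tested in macrophages, where 12.6% of all genes tested were past 2-fold higher and 12.3% lower, Ctsh (176 and 1268), Ifi30, the lysosomal thiol reductase (327 and 1954), and Irf1 (159 and 644) were past 2-fold higher, and Lgmn, the endopeptidase legumain (1811 and 448), and Cd83, which stabilizes surface MHC class II (402 and 115), past 2-fold lower. Langerhans cells had 0 of 7 past 2-fold, against 4.13% of genes higher and 3.36% lower.

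The 5 genes whose pattern was most like that of Cd74 and the 3 chain genes, by mean Pearson r of log2 levels with 10 UPM added over 26 combinations of class and library with at least 50 cells, were H2-DMb2 (0.88), Slc46a3 (0.85), Gm6377 (0.84), Aif1 (0.83) and C1qa (0.81). Of the members, H2-DMa had 0.93, H2-DMb1 0.90 and Ciita 0.86. Only the ACD dendritic cells and monocytes among antigen-presenting classes had 50 cells. How far these values rest on those classes was not tested, and all points of a library share its depth.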

How the data were processed

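The deposited files hold raw counts of UMIs per gene and barcode for 2 libraries, made by the authors with Cell Ranger 3.1.0 per the file headers (the methods name another version) on mm10 and not normalized. Barcodes with 201 to 4999 genes, at most 25000 UMIs and under 8% UMIs of mitochondrial genes were kept. The bound on UMIs, whose sign in the methods points the other way, was taken as a maximum. This filter left more cells than the study states. Cell classes were rebuilt from markers, since the files carry no annotation. A marker was on from 10% of the 95th percentile of the cells with a UMI of it, and a class needed 3 markers (Langerhans 2, Cd207 among them). These thresholds were set after values were seen, and the members and gene lists were chosen with earlier results of these data known. All 7 members, the leukocyte list and the 5 genes of most similar pattern were named, but only some genes of the pathway list.

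UMIs were summed per class and library. No test across samples was possible. Intervals are exact (Poisson, Clopper-Pearson, conditional binomial for ratios). Doublets were not removed. Scrublet calls (561 control and 412 ACD cells, 4.59% and 3.53%) were left out as an alternative, as were other filters, gates, scalings, pseudocounts, depths and background subtractions. Python 3.11.15, numpy 2.4.6, scipy 1.17.1, pandas 2.3.3, scanpy 1.11.5 and matplotlib 3.10.9 were used, and scripts were tested on simulated data. H2-Ea-ps of the pathway list was not analysed here. A further gene of that list is not reported here.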

Additional observations from a re-analysis of the deposited data

Results flagged for a closer look

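The summed level differed between the libraries in opposite directions in dendritic cells (log2 ratio -0.53) and macrophages (1.06). The difference between the classes was not tested, as there is 1 library per condition.

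Barcodes outside the comparisons carried more MHC class II RNA in ACD than in control. Mixed cells were at 2748 UMIs per 1000000 UMIs (UPM) in ACD and 1601 in control, ungated cells at 3114 and 1306, and barcodes removed by the filter (1498 in ACD, 682 in control) at 1889.5 and 305.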

How the results depend on the processing

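No paired analysis was possible because each condition has 1 library. Every log2 ratio of the summed level over the 11 classes kept its direction under the alternatives tried, subtraction of a background level aside, except that of Langerhans cells (-0.01), which was 0.035 with 1 more marker required, 0.029 as a mean over cells and 0.060 with a median-of-ratios scaling. Over all results and settings 100 values stayed within the counting interval, 53 moved beyond it and 3, the Langerhans values just given, changed sign.

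With all barcodes the log2 ratio was 0.88 in macrophages, -0.64 in dendritic cells, -0.071 in Langerhans cells, 4.01 in fibroblasts, 3.89 in chondrocytes and 4.21 in keratinocytes. With at least 500 genes and under 5% mitochondrial UMIs it was 0.84 in macrophages and -0.46 in dendritic cells. As a mean over cells it was 0.82 in macrophages, -0.43 in dendritic cells, 3.65 in chondrocytes, 2.22 in pericytes, 4.79 in endothelial cells, 6.13 in keratinocytes and 3.05 in glial cells. Median-of-ratios scaling gave 1.16 in macrophages and -0.44 in dendritic cells. With 1 more marker it was -0.79 in dendritic cells, 4.74 in fibroblasts, 4.87 in fibroblast/chondrocyte cells, 3.72 in chondrocytes and 3.13 in pericytes. Without Scrublet calls it was 1.87 in pericytes. Without cells holding leukocyte UMIs it was 4.78 in fibroblasts, 4.001 in chondrocytes, 0.96 in pericytes (no longer past 2-fold), 6.35 in keratinocytes and 2.69 in glial cells. Background was subtracted gene by gene with a floor at 0, and the control T/NK/ILC level (290 UPM) was above the summed control level of every resident class. What was left in control was H2-DMb1 alone in fibroblast/chondrocyte cells and chondrocytes, H2-DMa and Ciita in glial cells, H2-Eb1 alone in pericytes (0.790 UPM, against 0 in ACD) and 0 in the other 4 classes. The resulting 5.94, 3.72 and 4.96 in the first 3 of these classes are therefore no ratios of the summed level and bear on nothing above.

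For 3 alternatives chosen after seeing the data, leaving out shared barcodes gave -0.56 in dendritic cells. Subtracting the mast cell level, which in control was 2 UMIs of Cd74 (17.8 UPM) and so took Cd74 to 0 in the control resident classes, gave 4.38 in fibroblasts, 5.29 in fibroblast/chondrocyte cells, 3.80 in chondrocytes and 7.65 in keratinocytes, which for that reason are no test of the summed level. Leaving out resident cells with markers of antigen-presenting cells gave 4.66 in fibroblasts, 5.26 in fibroblast/chondrocyte cells, 1.90 in pericytes, 6.34 in keratinocytes and 3.17 in glial cells.

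At 1000 UMIs per cell the Cd74 share in ACD was 8.67% in fibroblasts, 20.9% in fibroblast/chondrocyte cells, 14.5% in chondrocytes and 2.43% in pericytes. Without thinning it was 27.2%, 43.4%, 32.2% and 13.3% in these classes, 54.9% in endothelial cells, 50% in keratinocytes, 13.4% in glial cells and 34.1% in melanocytes. Of pairs of a member and a resident class, 29 to 36 were past 2-fold higher with all cells and 20 of 29 without cells holding leukocyte UMIs. Except where stated, the cause of these shifts was not tested.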
